A study of Mus musculus with 8 samples.

Results

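Mir146 and Mir155 are the genes from which the hairpin precursors of the microRNAs miR-146a and miR-155 are made, and each was represented by 1 row (NR_029558 and NR_029565) among the 24625 rows of a gene expression array. The pair was chosen by its difference between the groups described next, so its values are given as a description and without a test. The samples were lung neutrophils of wild type mice, aged 6 to 12 weeks by the labels with a narrower range in the methods, that had received Streptococcus pneumoniae (SP) or phosphate-buffered saline (PBS), 2.3 µl per g of body weight, through the trachea into the left lung 24 h earlier. RNA of 4 PBS and 4 SP samples was hybridised to 1 Affymetrix Mouse Gene 1.1 ST array each, so that precision is limited by how few arrays there were. All mice carried the same wild type genotype and no transgene. The methods describe colonies founded from bought adult females of the C57BL/6J strain and do not name the sex of the mice studied. Cells were drawn from digested lung with magnetic beads against Ly6G, a neutrophil surface protein, and purity was assessed by the study in the pneumonia samples. The study describes a sample as coming from 1 mouse, but the labels do not number the mice, so p-values measure the spread between these samples.

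MicroRNAs are short RNAs that pair with messenger RNAs, mostly through the bases called the seed, and lower their stability or translation. They are cut from a hairpin, which the nuclear enzyme Drosha releases from a longer primary transcript and the cytoplasmic enzyme Dicer trims to the mature duplex. In myeloid cells both genes are known to be induced by NF-κB signalling downstream of Toll-like receptors. miR-146a is known as a brake on that route through the adaptors IRAK1 and TRAF6, whereas miR-155 is known to favour inflammation, with the cytokine signalling inhibitor SOCS1 and the phosphatase SHIP1 (Inpp5d) among its targets.

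Sequences from RefSeq (build GRCm38.p6) show the hairpins of the 2 genes and how the mature products differ. Probe sequences of the array were not at hand, so which part of the precursor transcripts the rows cover is not known. The Mir146 hairpin of 65 bases lies on the minus strand at chr11:43374397-43374461, and the Mir155 hairpin, also of 65 bases, on the plus strand at chr16:84714140-84714204. The latter lies within the host transcript Mir155hg, a long non-coding RNA gene for which no row was matched. Capitals in the hairpins mark the mature 5′ and 3′ arms, separated by loops of 14 bases in Mir146 and 16 bases in Mir155.
Mir146 hairpin: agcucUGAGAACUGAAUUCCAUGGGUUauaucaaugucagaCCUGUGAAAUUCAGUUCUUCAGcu
Mir155 hairpin: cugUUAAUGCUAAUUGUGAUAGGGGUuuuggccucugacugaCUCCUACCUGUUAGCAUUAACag

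The mature products are shown because the seed decides which messenger RNAs a microRNA can pair with. Capitals in the next 5 sequences mark the seed, bases 2 to 8 counted from the 5′ end. The product of a second miR-146 gene, Mir146b on chromosome 19, is included for comparison.
miR-146a-5p: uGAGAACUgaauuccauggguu
miR-146b-5p: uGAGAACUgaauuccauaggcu
miR-146a-3p: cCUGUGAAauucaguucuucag
miR-155-5p: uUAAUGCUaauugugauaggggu
miR-155-3p: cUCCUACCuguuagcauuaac
The seed of miR-146a-5p was shared with 1 other mature mouse microRNA of the RefSeq table, miR-146b-5p, and the seed of miR-155-5p with 0 others. miR-146a-5p and miR-146b-5p had the same base at 20 of 22 positions, and the differences, counted from the 5′ end and from miR-146a-5p to miR-146b-5p, were G18A and U21C, which lie outside the seed. The Mir146 and Mir155 hairpins had no run of more than 6 bases in common. A row of the array reports RNA of the precursor gene and does not report how much mature microRNA was made from it. The microRNA arrays of the study, run on the same neutrophils, were not analysed here. The study's list of conserved microRNAs that changed at least 2-fold under both of its normalizations names neither miR-146a-5p nor miR-155-5p. A rise of a precursor row is therefore not to be read as a rise of the mature microRNA.

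Both precursors were near background in neutrophils of PBS mice and high in neutrophils of SP mice. Mir146 measured 4.97, 4.83, 5.11 and 5.02 log2 units in PBS replicates 1 to 4 and 9.78, 9.77, 9.40 and 9.48 in SP replicates 1 to 4. The groups did not overlap, and the lowest SP value lay 4.29 log2 units above the highest PBS value. The means were 4.98 ± 0.12 (SD, n = 4) in PBS and 9.61 ± 0.19 (SD, n = 4) in SP, a difference of 4.62 ± 0.11 (SE) log2 units or 24.7-fold.

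Mir155 measured 5.16, 5.16, 5.03 and 5.08 log2 units in PBS replicates 1 to 4 and 10.00, 10.04, 9.98 and 9.32 in SP replicates 1 to 4. The groups again did not overlap, with a gap of 4.16 log2 units, and SP replicate 4 was low beside the other SP samples. The means were 5.11 ± 0.07 (SD, n = 4) in PBS and 9.83 ± 0.34 (SD, n = 4) in SP, a difference of 4.73 ± 0.16 (SE) log2 units or 26.5-fold.

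The low SP samples were not the same for the precursors. Mir146 was lower in SP replicates 3 and 4 than in SP replicates 1 and 2, whereas Mir155 was lower in SP replicate 4 alone, so that Mir155 minus Mir146 was 0.22, 0.27, 0.58 and -0.16 log2 units in SP replicates 1 to 4. In the PBS samples this quantity ran from -0.08 to 0.33. Leaving out any 1 array kept the difference between 4.57 and 4.69 for Mir146 and between 4.66 and 4.90 for Mir155.

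Y-linked genes, which female mice lack, gave a measure of background. The 24 values of Ddx3y, Kdm5d and Uty ran from 4.33 to 4.90 with a median of 4.52, while Xist, the transcript of the inactive X chromosome, measured 12.01 to 12.71 on the 8 arrays. The lowest PBS value of Mir146 lay in that range, and the other PBS values of both precursors lay just above it. Where a signal is close to background, the array cannot show how low the RNA was, and the fold changes of Mir146 and Mir155 are therefore not exact.

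**Figure D1:**
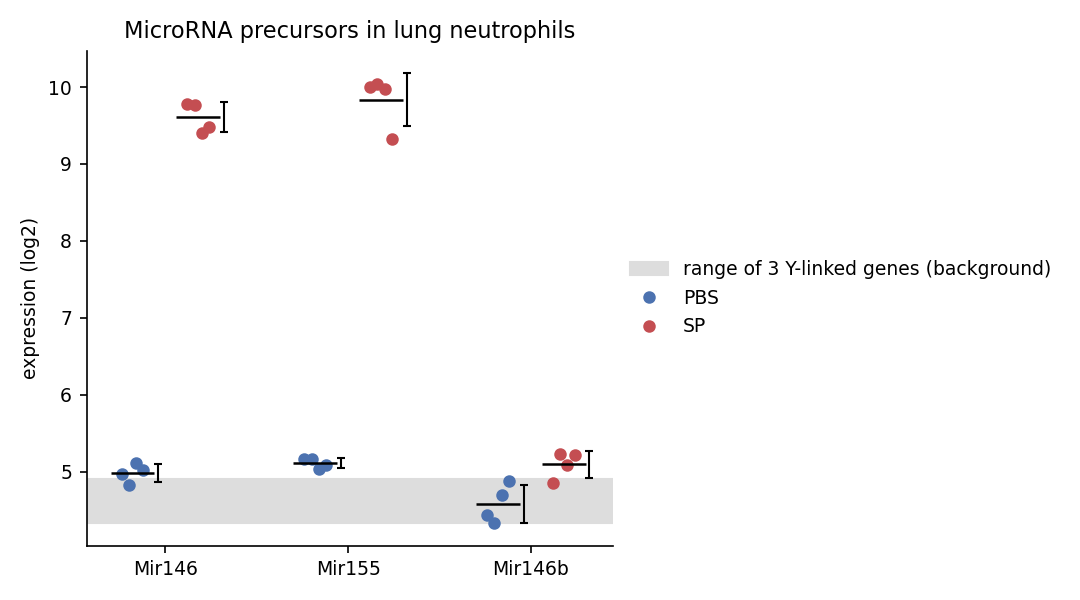
Log2 expression of Mir146, Mir155 and Mir146b in each of the 4 PBS (blue) and 4 SP (red) arrays, with the mean (line) and SD (bar), and the range of 3 Y-linked genes shaded. Mir146 and Mir155 go from about the shaded background, at means of 4.98 and 5.11, to means of 9.61 and 9.83 with no overlap of groups, while Mir146b moves from 4.58 to 5.10.

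The precursor of the microRNA with the same seed was measured too. Mir146b (NR_030468) measured 4.43, 4.33, 4.69 and 4.88 log2 units in PBS replicates 1 to 4 and 4.85, 5.23, 5.08 and 5.22 in SP replicates 1 to 4. All PBS values and the lowest SP value lay at or below the highest Y-linked value, and the groups overlapped by a single pair of arrays. Its difference was 0.51 ± 0.14 (SE) log2 units, or 1.43-fold. The gap between the Mir146 and Mir146b differences was not tested, since Mir146 was chosen by its own.

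Mir155 and Mir146 had the largest and second largest differences among the 309 rows of microRNA precursors, and the 25th and 34th largest among all 24625 rows. Over the other 307 precursors the difference had a median of 0.18 log2 units, with quartiles of 0.08 and 0.33, against a median of 0.10 over all rows. At least 2-fold higher in SP were 18 of the 307 (5.86%), and at least 2-fold lower were 2 (0.651%), where over all rows 6.48% and 11.4% were that much higher and lower. For 142 of the 307, the means of both groups were at or below the highest Y-linked value of 4.90, where the array may not show a change. No other precursor differed by 16-fold or more, against 75 of all rows.

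Next after the members came Mir221 and Mir222, neighbours on the X chromosome that share a seed family and are known for targeting the cell cycle inhibitor p27. Mir221 went from 4.99 to 8.11 log2 units (8.69-fold) and Mir222 from 4.88 to 7.62 (6.70-fold), each from near background and with no overlap of groups, and these are given as values without a test. Differences of at least 4-fold were also seen for Mir340 (2.58 log2 units) and Mir140 (2.48). The remaining precursors at least 2-fold higher were Mir191, Mir29a, Mir692-1, Mir28a, Mir15a, Mir29b-1, Mir22, Mir425, Mir16-1, Mir103-2, Mir101a, Mir6516, Mir674 and Mir30e, with differences of 1.92 down to 1.03. The 2 lower ones were Mir344 (-1.94) and Mir568 (-1.15). Mir142, known as a microRNA gene of blood cells, measured 9.89 ± 0.90 (SD, n = 4) in PBS and 10.49 ± 0.20 (SD, n = 4) in SP, and its groups overlapped.

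**Figure D2:**
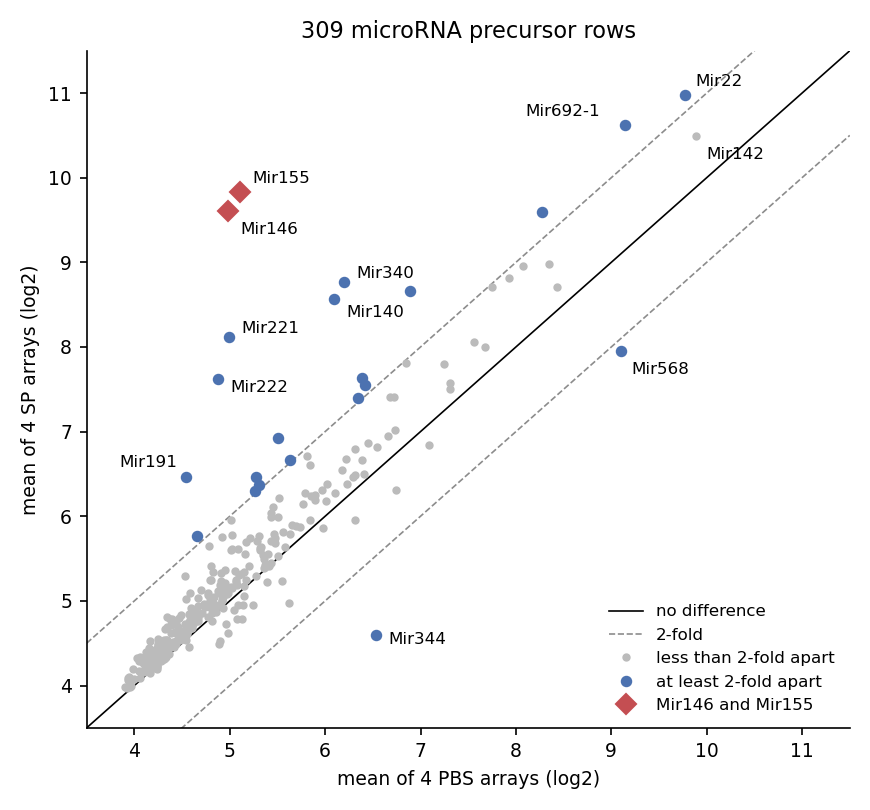
Mean log2 expression in 4 SP arrays against that in 4 PBS arrays for 309 microRNA precursor rows, with lines of no difference and of a 2-fold difference. Mir146 and Mir155 (red diamonds) stand farthest above the line of no difference, at 4.62 and 4.73 log2 units, followed by Mir221 at 3.12, while most rows lie in the lower left near background.

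The known targets set beside the precursors were measured on the same arrays, and 3 of these 4 messenger RNAs were higher in SP by limma with Benjamini-Hochberg adjustment over all rows. By the same call, an adjusted p of at most 0.05, 21.5% of all rows were higher and 22.6% lower in SP. With arrays centred on their medians these shares were 57.7% and 16.4%, so that 77.9% of calls were higher, against 48.9% as deposited. With a difference of at least 2-fold added, the shares as deposited were 6.37% and 11.3%. Results of these data were known when the context genes were named.

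Irak1 (NM_001177973), the kinase that joins MyD88 to TRAF6 and a defining target of miR-146a, measured 8.41, 8.51, 8.36 and 8.35 log2 units in PBS replicates 1 to 4 and 8.61, 8.65, 8.29 and 8.59 in SP replicates 1 to 4. SP replicate 3 was the lowest of all 8 arrays, and the groups overlapped. The difference of 0.13 ± 0.10 (SE) log2 units did not pass the test (adjusted p = 0.285). It passed without SP replicate 3, at 0.21 (adjusted p = 0.0372), and when arrays were centred on their medians, at 0.41 (adjusted p = 0.00569). The value was positive and below 1.5-fold under each alternative run.

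Traf6 (NM_009424), the ubiquitin ligase that acts next in the route and is the other defining target of miR-146a, measured 8.82, 8.63, 9.05 and 8.87 log2 units in PBS replicates 1 to 4 and 11.05, 11.28, 10.98 and 10.80 in SP replicates 1 to 4. Every SP array was above every PBS array. The difference was 2.19 ± 0.13 (SE) log2 units, or 4.55-fold higher in SP (adjusted p = 1.07e-05).

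Socs1 (NM_001271603), an inhibitor of cytokine receptor signalling and a target of miR-155, measured 6.34, 5.51, 6.44 and 6.41 log2 units in PBS replicates 1 to 4 and 10.88, 11.17, 10.77 and 10.57 in SP replicates 1 to 4. PBS replicate 2 was low, and the groups were far apart. The difference was 4.67 ± 0.23 (SE) log2 units, or 25.5-fold (adjusted p = 4.79e-06), beside 26.5-fold for the Mir155 precursor itself.

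Inpp5d (NM_001110192), which encodes the lipid phosphatase SHIP1 and is the other context target of miR-155, measured 10.78, 10.14, 11.01 and 10.91 log2 units in PBS replicates 1 to 4 and 11.95, 11.97, 11.49 and 11.74 in SP replicates 1 to 4. The groups did not overlap. The difference was 1.08 ± 0.20 (SE) log2 units, or 2.11-fold (adjusted p = 0.00319). None of the 4 context messenger RNAs was lower in SP, and whether their proteins followed was not measured here.

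**Figure D3:**
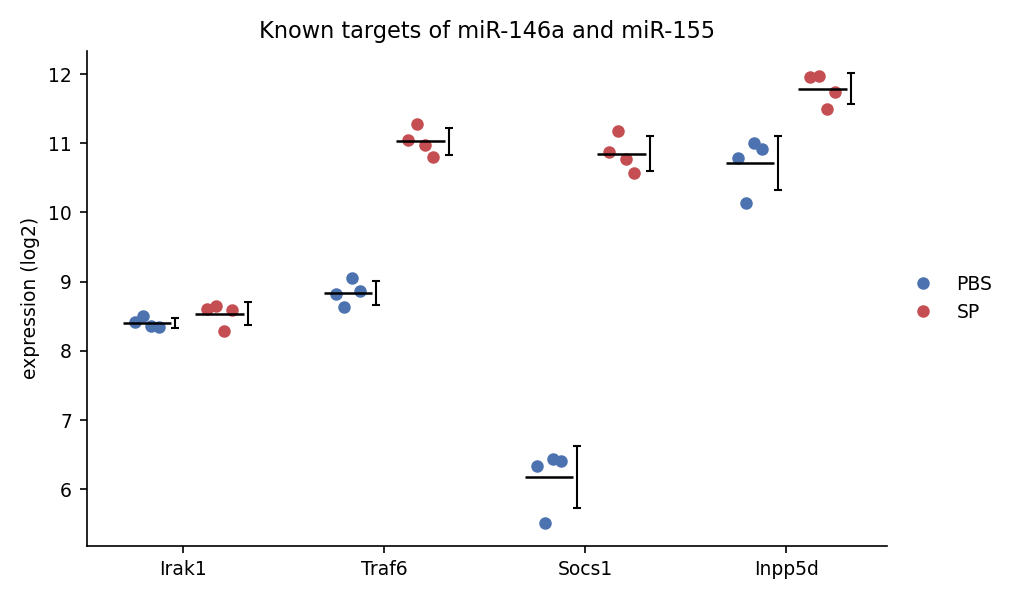
Log2 expression of the context targets Irak1, Traf6, Socs1 and Inpp5d in each of the 4 PBS (blue) and 4 SP (red) arrays, with the mean (line) and SD (bar). Traf6, Socs1 and Inpp5d show no overlap between groups, with differences of 2.19, 4.67 and 1.08 log2 units, and Irak1 overlaps at a difference of 0.13; levels of different genes are not comparable on this scale.

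Of 11 messenger RNAs listed as targets of miR-146a, 10 had a row, and 5 of these were higher and 2 lower in SP, with a median difference of 1.21 log2 units. Over all rows 21.5% were higher and 22.6% lower. With arrays centred on their medians, 7 of the 10 were higher and 1 lower, against 57.7% and 16.4% of all rows. The gap to the share of all rows that were higher was thus smaller when centred, and it was not tested. The 5 that were higher as deposited were so by at least 2-fold. Relb, a subunit of the non-canonical NF-κB dimer, rose 3.09 ± 0.21 (SE) log2 units or 8.53-fold (adjusted p = 1.95e-05). Irf5, a transcription factor of Toll-like receptor responses, rose 4.98-fold and the death receptor Fas 4.57-fold. Card10, a scaffold protein that leads to NF-κB in non-immune cells, fell 2.93-fold (adjusted p = 6.55e-05). It was highest in PBS replicate 2 (8.55) and lowest in SP replicate 3 (6.53). The array means of ciliated cell markers were so too (9.78 and 6.45), and the part of such cells in the fall of Card10 was not tested. The receptor Notch1 fell by 0.56 log2 units (adjusted p = 0.0319), and this call was lost without any 1 of PBS replicates 1, 3 and 4 and SP replicates 1, 2 and 4, with adjusted p up to 0.0818, and with centred arrays (adjusted p = 0.22). Cxcr4, the chemokine receptor that holds neutrophils in bone marrow, and the Notch inhibitor Numb did not pass the test, with differences of 0.60 and -0.06. The sign of the Numb value turned with arrays centred on their medians, at 0.22.

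Of 26 messenger RNAs listed as targets of miR-155, 25 had a row, and 10 (40.0%) were higher and 11 (44.0%) lower in SP, with a median difference of -0.17 log2 units. At least 2-fold higher were 5 and at least 2-fold lower were 7. With arrays centred on their medians, 12 (48.0%) were higher and 8 (32.0%) lower. The share higher lay above that over all rows as deposited (21.5%) and below it when centred (57.7%). The share lower lay above that over all rows both as deposited (22.6%) and when centred (16.4%), which was not tested. Targets were called in both directions under either scaling.

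The largest rise in this list was that of Ikbke, an inducible kinase of the NF-κB and interferon routes, from 7.43 to 12.38 log2 units or 30.9-fold (adjusted p = 7.25e-08). Maf, a transcription factor of macrophages and T cells, rose 3.02-fold and the cell death kinase Ripk1 2.22-fold. Among SP arrays Maf was highest in replicate 4 (9.07) and lowest in replicate 3 (7.87). The array means of the monocyte and macrophage markers were so too (9.44 and 7.77), and the part of such cells in the rise of Maf was not tested. The Polycomb cofactor Jarid2 (1.96-fold), the haem-responsive repressor Bach1 (1.93-fold) and the adaptor Tab2 (1.44-fold) rose by less than 2-fold. Cebpb, a transcription factor of granulocyte production, rose 2.00-fold with an adjusted p of 0.0382. That call was lost without any 1 of PBS replicates 1 and 2 and of the 4 SP replicates, with adjusted p up to 0.0988.

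Among the targets that fell, the homeobox factor Meis1 was lower by 4.23-fold (adjusted p = 0.00147), from 8.66 ± 0.38 to 6.58 ± 0.67 log2 units (SD, n = 4 each). The clock gene Arntl (2.40-fold), the bone morphogenetic protein effector Smad5 (2.38-fold), the zinc finger gene Zfp652 (2.31-fold) and the lymphocyte transcription factor Ets1 (2.14-fold) also fell. Smaller falls were those of the death adaptor Fadd (1.87-fold), the p53-induced stress gene Trp53inp1 (1.58-fold), the AP-1 subunit Fos (1.55-fold) and the phosphoinositide kinase subunit Pik3r1 (1.45-fold). With arrays centred on their medians the falls of Trp53inp1 (-0.38, adjusted p = 0.0694), Pik3r1 (-0.26, adjusted p = 0.0568) and Fos (-0.35, adjusted p = 0.161) were not called. The call of Fos (adjusted p = 0.0392) was also lost without any 1 of PBS replicates 1, 3 and 4 and SP replicates 1 to 3, with adjusted p up to 0.0988. Spi1, which encodes the myeloid factor PU.1, the small GTPase Rhoa, the endocytic adaptor Picalm and the DNA repair gene Msh6 did not pass the test, at 0.25, 0.10, -0.17 and -0.27. On the same arrays, where 22.6% of all rows were lower, markers of other cells were lower in SP. Called were 7 of 8 endothelial, 7 of 8 B cell, 7 of 7 ciliated cell and 6 of 6 alveolar type 2 cell genes. SP replicate 3 had the lowest array mean of each of these marker lists and was the lowest SP array for Meis1 (5.82), Smad5 (7.09), Arntl (6.26) and Zfp652 (8.62), but not for Ets1 (8.29). The part of these cells in the falls was not tested.

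**Figure D4:**
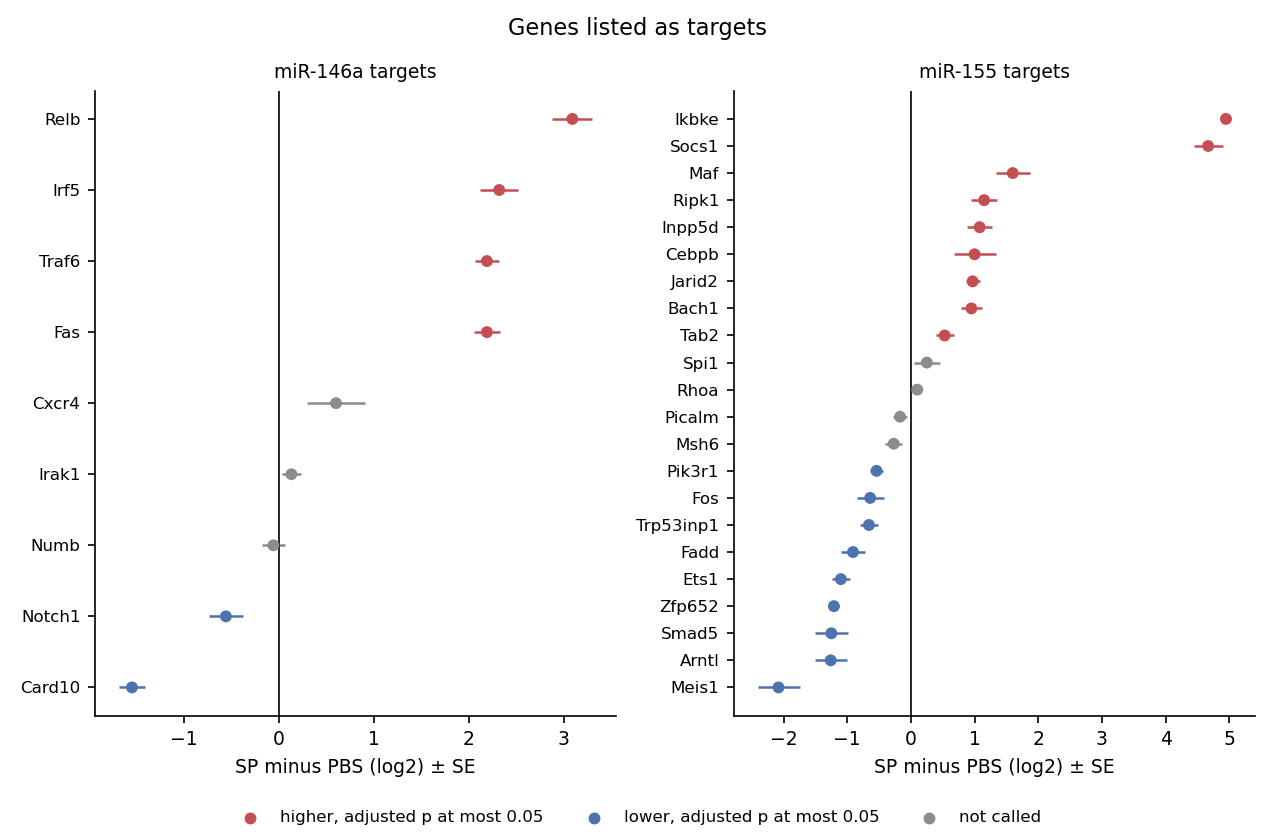
Difference between SP and PBS (log2, point) with its standard error (bar) for 9 of the 10 measured miR-146a targets and 22 of the 25 measured miR-155 targets, coloured by the limma call. Relb (3.09) leads the first panel and Ikbke (4.95) and Socs1 (4.67) the second, and targets of both microRNAs lie on both sides of 0.

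Relatives of the context targets that are not in the target lists moved in both directions. Of 15 measured relatives in the IRAK, TRAF, SOCS and SHIP families, 8 (53.3%) were higher and 5 (33.3%) lower. Over all rows 21.5% were higher and 22.6% lower, and the median difference of the relatives was 0.42 log2 units. With centred arrays 8 (53.3%) were higher and 4 (26.7%) lower, against 57.7% and 16.4% of all rows. Traf1 (6.32-fold), Irak3, the kinase-dead inhibitor of the route (5.52-fold), Cish (5.52-fold) and Traf3 (5.07-fold) had the largest rises, and Socs3 rose 2.36-fold. Inppl1, which encodes SHIP2, fell 2.74-fold, Traf4 2.26-fold, Socs2 1.95-fold and Traf5 1.83-fold. The call of Socs2 (adjusted p = 0.0197) was lost without PBS replicate 1, at an adjusted p of 0.0503, and that of Traf5 after another quantile normalization, at -0.49 (adjusted p = 0.0566). Without PBS replicate 1 the number of lower relatives was 3.

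Genes of the route from Toll-like receptors to NF-κB, which is known to switch on both precursors, were mostly higher. Of 22 measured genes, 16 (72.7%) were higher and 1 (4.55%) lower, against 21.5% and 22.6% of all rows. The median difference was 1.0 log2 units. With arrays centred on their medians, 18 (81.8%) were higher and 0 lower, against 57.7% and 16.4% of all rows. The list shares Traf6, Irak1, Relb, Tab2, Irak3 and Irak4 with the lists above. The largest rise was that of Tlr9, the receptor for unmethylated bacterial DNA, from 7.05 ± 0.43 to 11.75 ± 0.32 log2 units (SD, n = 4 each) or 26.0-fold (adjusted p = 5.44e-06). Nfkbia, the inhibitor IκBα that NF-κB itself induces, rose 2.55-fold, and the receptor adaptor Myd88 1.46-fold. The call of Myd88 (adjusted p = 0.0261) was lost without PBS replicate 1, SP replicate 1 or SP replicate 3, with adjusted p up to 0.0682. Irak4, the kinase that acts before IRAK1, was the lower gene, at 1.58-fold (adjusted p = 0.0298). It was not called without any 1 of PBS replicates 1, 3 and 4 and SP replicates 1 and 3, with adjusted p up to 0.0767, or with centred arrays (adjusted p = 0.141).

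Genes of the proteins that make and use microRNAs moved in both directions. Of 28 measured genes of this machinery, 5 (17.9%) were higher and 10 (35.7%) lower, with a median of -0.29 log2 units. With arrays centred on their medians, 7 were higher and 6 (21.4%) lower, so the balance of the counts turned with the scaling. Over all rows 21.5% were higher and 22.6% lower as deposited, and 57.7% and 16.4% when centred. Under both scalings the machinery share that was higher lay below that over all rows, and the share that was lower lay above it. These gaps were not tested. Drosha, which cuts the hairpin from the primary transcript, was 2.06-fold lower (adjusted p = 0.0445). That call was lost without any 1 of the 4 PBS replicates or SP replicate 2, with adjusted p up to 0.101, and with centred arrays (adjusted p = 0.0526). Dicer1, which trims the hairpin, fell 2.21-fold (adjusted p = 9.59e-04), and Prkra, a partner of Dicer, 2.25-fold. Among the Argonaute proteins that hold the mature strand, Ago1 fell 2.46-fold while Ago2, the one that can slice, rose 1.62-fold (adjusted p = 0.0113). The largest rises were those of Zc3h12a, the ribonuclease Regnase-1 that can also cut precursor loops (6.56-fold), and Adar, the RNA-editing enzyme (3.73-fold). Tut7, a terminal uridyl transferase, rose 1.51-fold (adjusted p = 0.0290), and its call was lost without any 1 of PBS replicate 1 and SP replicates 1 to 3, with adjusted p up to 0.0706. The helicase Ddx5, a partner of Drosha, did not pass the test at -0.04, and its value was 0.24 with arrays centred on their medians. SP replicate 3, with the lowest SP array means of endothelial (8.84), ciliated cell (6.45) and alveolar type 2 cell markers (10.22), was also the lowest array for Drosha (6.04), Dicer1 (7.86), Prkra (5.17) and Ago1 (6.68). Without it, 8 machinery genes were lower and 5 higher. The part of those cells in the machinery differences was not tested.

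**Figure D5:**
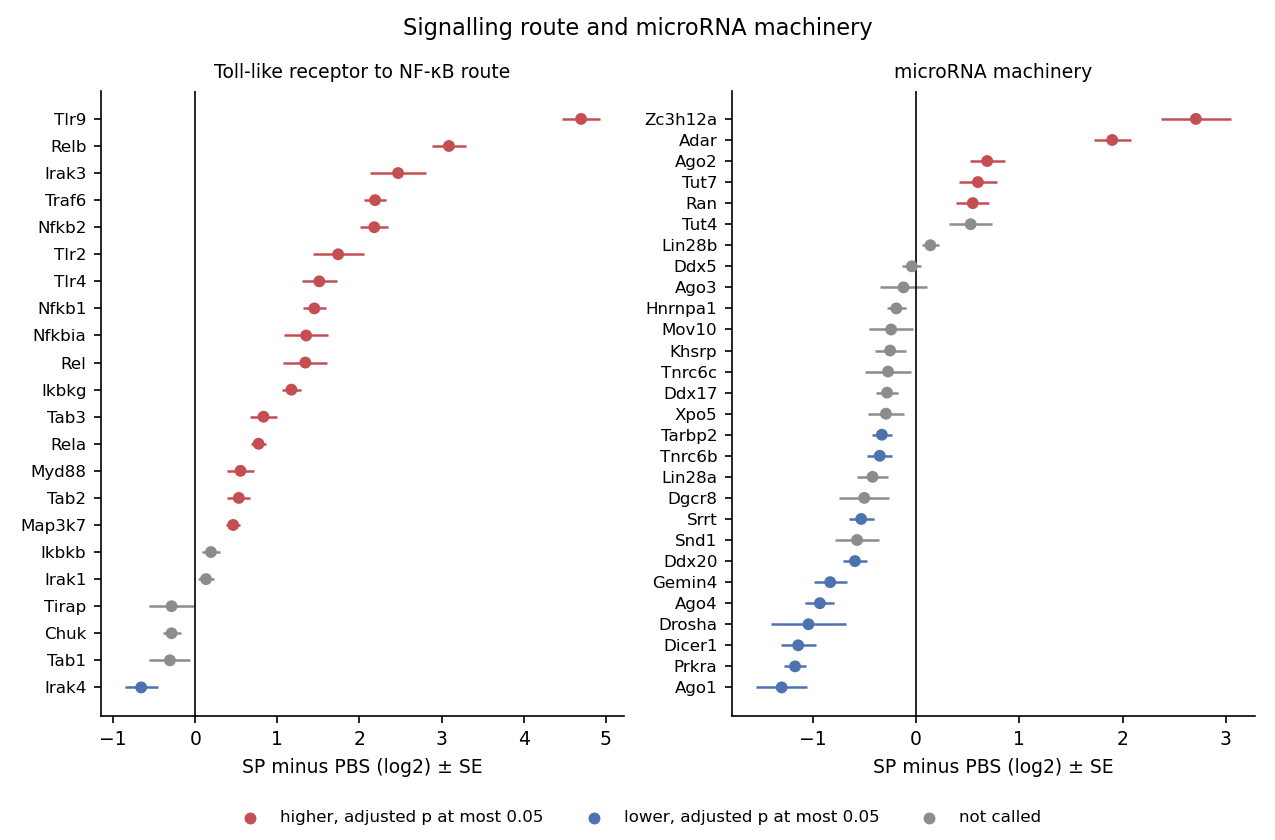
Difference between SP and PBS (log2, point) with its standard error (bar) for 22 genes of the Toll-like receptor to NF-κB route and 28 genes of the microRNA machinery, coloured by the limma call. Route genes lie mostly to the right of 0 (16 called higher, 1 lower), with Tlr9 at 4.70. Machinery genes lie on both sides (5 higher and 10 lower as deposited, 7 and 6 with centred arrays), with Ago1 at -1.30. Over all rows, 21.5% were higher and 22.6% lower as deposited, and 57.7% and 16.4% with centred arrays.

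Rows whose pattern was most like that of the precursors were found by the root mean square difference of row-centred log2 values over the 8 arrays. For Mir146 the 5 nearest rows with a symbol were Lacc1 (0.17), Gpr31b (0.17), Tnfrsf9 (0.21), Mir155 (0.22) and 4930599N23Rik (0.22). For Mir155 they were Mir146 (0.22), Ikbke (0.22), Lacc1 (0.23), Mfsd7a (0.24) and 4930599N23Rik (0.26). Each precursor was thus among the 5 nearest rows of the other. These likenesses rest mainly on the step between the groups and are a description over 8 arrays. Lacc1 encodes a metabolic enzyme of myeloid cells, and Tnfrsf9 the co-stimulatory receptor 4-1BB. From PBS to SP the means went from 6.33 to 10.95 log2 units for Lacc1, from 6.04 to 10.43 for Gpr31b, and from 5.21 to 9.50 for Tnfrsf9. Those of 4930599N23Rik went from 5.14 to 10.11, and those of Mfsd7a from 6.52 to 11.43.

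Genes beside the precursors on the chromosome are given as context. Of the 12 nearest genes with a row, 3 on each side of each precursor, 5 were higher and 1 lower by limma. Over all rows, 21.5% were higher and 22.6% lower. The differences of the 12 ran from -1.24 to 0.85 log2 units. The precursors were chosen by their large differences, so smaller ones beside them do not show that the change was local. Beside Mir146, the splicing factor Slu7 (0.85) and the securin gene Pttg1 (0.80) were higher and C1qtnf2 (-1.24) was lower. The GABA receptor genes Gabrb2 and Gabra6, on the other side, did not pass the test at 0.16 and 0.11. Beside Mir155, the mitochondrial ribosome gene Mrpl39 (0.55) was higher, as were Ncam2 (0.42) and Tmprss15 (0.35), whose values of 4.28 to 5.02 lay near background. The call of Tmprss15 (adjusted p = 0.0250) was lost when PBS replicate 1 or 2 or SP replicate 2 was left out, with adjusted p up to 0.0538. Chodl (0.21), Jam2 (-0.14) and Atp5j (-0.23) did not pass the test.

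Markers of cell types were read on the same arrays because both precursors are also known from other blood cells. In bulk samples, fewer cells of a type and less RNA per cell cannot be told apart. Over all rows, 21.5% were called higher and 22.6% lower in SP, and the marker counts stand beside these shares. Neutrophil markers were bright in both groups, with array means of the 8 measured genes from 12.80 to 13.11 log2 units in PBS and 12.47 to 13.01 in SP, and 3 of the 8 (Mmp8, Mmp9 and Retnlg) were lower in SP. Ly6g itself had no matched row. Of 7 monocyte and macrophage markers, 4 were higher in SP, among them Adgre1 (1.27), Ms4a7 (1.15) and Ccr2 (0.89), and array means ran from 7.75 to 8.57 in PBS and 7.77 to 9.44 in SP. C1qa, C1qb and C1qc, defining macrophage genes, did not pass the test at 0.02, 0.13 and -0.30. Of 9 T cell markers, Cd5 and Cd3d (22.2%) were higher in SP, a share near that over all rows. Array means of the T cell list ran from 5.53 to 6.13 in PBS and 5.67 to 6.75 in SP.

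Markers of the other cell types were mostly lower in SP, where 22.6% of all rows were lower. B cell markers were lower in SP in 7 of 8 genes, with array means from 7.33 to 8.15 in PBS and 5.82 to 6.82 in SP. Lower in SP were also 4 of 7 alveolar macrophage markers, of which Chil3 alone was higher (0.97). Of 7 dendritic cell markers, 2 (28.6%) were lower, a share near that over all rows. Also lower were 7 of 7 markers of ciliated cells, 6 of 6 of alveolar type 2 cells, 3 of 3 of club cells and 7 of 8 of endothelium. SP replicate 4, the lowest SP array for Mir155, had the highest array mean among the SP samples for the monocyte and macrophage list (9.44) and for the alveolar macrophage list (8.12). Mir146 was lower in SP replicates 3 and 4, and so were the T cell (5.72 and 5.67) and B cell means (5.82 and 5.91). In SP replicates 1 and 2 these means were 6.54 and 6.75 for T cells and 6.50 and 6.82 for B cells. SP replicate 3, the lowest SP array for Mir146, had the lowest SP mean of the monocyte and macrophage list (7.77). Its neutrophil mean was the highest of the SP arrays (13.01). The median difference was 0.89 log2 units over the monocyte and macrophage list and 0.41 over the T cell list. Such a median cannot show how much precursor RNA came from those cells. The part of any of these cells in the Mir146 and Mir155 differences was not tested.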

How the data were processed

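The deposited table held log2 expression values, which the authors made by robust multi-array averaging: a background correction, an adjustment for probe sequence and GC content, quantile normalization, and a median polish that joins the probes of a gene. The submitters' processing notes name Affymetrix Expression Console, RMA and Partek. No genome build is given for the rows in the sources used here. Values are relative within an array, and array medians lay between 6.06 and 6.20 in PBS and between 5.78 and 5.91 in SP. Correlations between arrays of a group were 0.970 to 0.997 across rows, which are not independent replicates.

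RefSeq symbols (GRCm38.p6) were matched without versions to 19915 of 24625 rows (80.9%). Rows named by Ensembl or GenBank identifiers stayed without a symbol, so a gene without a matched row may be among them. Where rows shared a symbol, the row with the highest mean was taken. Precursor rows were those of RefSeq type microRNA. No filter on low values was applied. Rows were compared with limma 3.58.1 in R 4.3.3 (lmFit and eBayes, no covariates, two-sided, Benjamini-Hochberg over all rows), which was tested on simulated data. Python 3.11.15 was used for counts, sequences and figures.

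The members, the context genes and all lists were chosen with earlier results of these data known, and target lists came from general knowledge. Genes named were the members and their relatives, the listed targets, the 4 largest called rises and falls and the 2 highest means of each other list, the 5 nearest patterns, the 3 neighbours on each side, and precursors at least 2-fold apart; cell type markers were named after their values were seen. Some genes of the lists are counted, but their values are not reported here. Alternatives were centring on array medians, another quantile normalization, the methods' t-test, array weights, a block for the replicate number, a robust prior with an intensity trend, leaving out dim rows, 1 row per symbol and leaving out each array.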

Additional observations from a re-analysis of the deposited data

Results flagged for a closer look

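Within the groups of 4 arrays of 87 genes (174 groups), 10 single arrays stood apart by Dixon's ratio, the gap to the nearest array over the whole range, at the critical value for 4 samples. Chance alone gives such a ratio in about 1 in 20 groups. Of the precursors, Mir155 did so in SP replicate 4, where it measured 9.32 log2 units with 9.98 as the next value (ratio 0.911). That array lay above every PBS array by at least 4.16 log2 units. Of the targets, Socs1 was low in PBS replicate 2 at 5.51 against 6.34 (0.901), as was Irf5 at 8.09 against 8.88 (0.842).

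SP replicate 3 was the high array for Cebpb (0.907), Socs3 (0.949), Chodl (0.900) and Mir15a (0.887). PBS replicate 1 was the low array for Mir340 (0.843) and Mir222 (0.993), and SP replicate 1 for Mir344 (0.870), with gaps of 0.37, 0.23 and 0.22 log2 units.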

How the results depend on the processing

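The differences of Mir146 and Mir155 were 4.91 and 5.01 with arrays centred on their medians, and 4.62 and 4.73 with the replicate number as a block. They were the 2 largest among precursor rows under both scalings and without any 1 array, with Mir155 first except without SP replicate 3. Centring adds 0.28 log2 units, the gap between the array medians of the groups, to each SP difference, so small differences can change sign. It turned the share of calls that were higher from 48.9% to 77.9%, with 14219 rows higher and 4036 lower against 5306 and 5554, and that of 2-fold calls from 36.1% to 55.6% (46.1% after another quantile normalization). Traf6, Socs1 and Inpp5d kept their direction and call throughout, and without any 1 array lay between 2.10 and 2.26, 4.45 and 4.77, and 0.89 and 1.18. Irak1 passed the test with centred arrays (0.41), another quantile normalization (0.33) and array weights (0.22), and without any 1 array lay between 0.09 and 0.21.

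Lower miR-146a targets numbered 1 with centring and with the methods' t-test, and 1 to 2 without any 1 array. Lower relatives of the context genes numbered 3 to 5 without any 1 array. Lower route genes numbered 0 with centring, the methods' t-test and the block, 2 after quantile normalization and with array weights, and 0 to 1 without any 1 array. Machinery genes that were higher numbered 3 with the methods' t-test and 3 to 5 without any 1 array, and lower ones 6 with centring and 7 to 11 without any 1 array. Called neighbours numbered 10 with centring and 3 with dim rows left out, where fewer were tested. Other precursors at least 2-fold apart numbered 31 with centring and 16 to 24 without any 1 array.

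Uncalled values that changed sign with centring were Numb (0.22), Msh6 (0.01), Picalm (0.11), Ddx5 (0.24), Jam2 (0.14) and Atp5j (0.05). With another quantile normalization they were Rhoa (-0.07) and Msh6 (0.11), and with array weights Jam2 (0.06). Without any 1 array, Numb lay between -0.12 and 0.00 and Jam2 between -0.33 and 0.14. The cause was not tested for any of these, beyond the centring step itself. Among 60 single genes named, 6 calls were lost and 6 gained with centring, 5 and 3 with another quantile normalization, 7 and 2 with the methods' t-test, and up to 9 were lost without 1 array (PBS replicate 1). The calls gained with centring were those of Cxcr4, Spi1, Rhoa, Gabrb2, Gabra6 and Chodl, and with another quantile normalization those of Picalm, Ddx5 and Atp5j were gained and those of Cebpb, Traf5, Drosha, Tut7 and Tmprss15 lost. Samples were not taken as paired by replicate number: correlations of the deviations of same-numbered arrays ran from -0.274 to 0.350, and not every array was most like that of its own number. With the replicate number as a block, 4477 rows were higher and 5365 lower, Tab2 (adjusted p = 0.0501), Fos (0.0587) and Irak4 (0.0541) were not called, and the counts of the other lists stayed within 1.5 times. Signal near background limits Mir146, Mir155 and Mir146b in PBS and most other precursors.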
